A study of Mus musculus with 6 samples.

Results

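Fat cells are rich in a small set of transcripts for fat storage and secretion, and 10 of these were followed here in uterine RNA from ovariectomized mice. The set was a fixed list of names: the secreted factors Adipoq, Cfd, Lep and Retn, the lipid droplet proteins Plin1 and Cidec, the lipases Lpl and Lipe, and the cytosolic proteins Fabp4 and Car3. A gene counted as measured where a probe set carried its symbol alone, and where several did, the one with the highest mean over all arrays was used. By this rule 8 of the 10 were measured, out of 18193 genes, and Cfd and Plin1 were not analysed here. The label was borne out in part. Fabp4 lay well above the negative controls on every array. Adipoq did so on all but progesterone replicate 3, where it was 4.39 on the log2 scale. Lep stayed near those controls, and Pparg, the transcription factor that directs fat cell formation, lay between 3.85 and 4.47. Levels throughout are log2 values from RMA, which merges the probes of a probe set after normalization across arrays, and the TrpnX negative controls lay between 2.87 and 3.34.

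All animals were female, of mixed background, and carried the GATA2 f/f genotype, in which Gata2 is flanked by recombination sites. Both groups stand for animals with that allele in its floxed form, as the labels list no recombinase. The mice lost their ovaries when 6 weeks old. When 8 weeks old they were given 100 µl of sesame oil alone or with 1 mg of progesterone, and the uterus was taken 6 h after that. There were 3 arrays with oil and 3 with progesterone, from RNA pooled over 3 mice. The labels do not say that every array had its own pool, so a p-value here covers only the variation among these arrays, part of which may be technical. The number of arrays limits the precision. The tissue carried its defining transcripts, since Hoxa11, a homeobox factor of the uterine stroma, lay between 9.49 and 10.82 and Myh11, the smooth muscle myosin, between 12.08 and 12.80. The arrays also differed in other tissues: the neutrophil transcript S100a8 was above 11 on oil replicate 3 and progesterone replicates 2 and 3 and below 6 on the others, and the liver transcript Alb was 8.71 on oil replicate 3 and at most 4.29 elsewhere.

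White fat stores triglyceride in a droplet coated by perilipin and Cidec, and releases fatty acids from it through hormone-sensitive lipase, the product of Lipe. Lipoprotein lipase, made by fat and several other cell types, frees fatty acids from circulating lipoproteins. Adiponectin, the product of Adipoq, is secreted almost only by fat cells, and the uterus lies close to the parametrial fat of the broad ligament. In whole tissue, fewer cells of a type and less RNA per cell cannot be told apart.

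After progesterone, all 8 measured markers had a lower mean than after oil, and none passed the threshold (limma, Benjamini-Hochberg adjusted p under 0.05 over all genes). An unadjusted limma p under 0.05 was seen in 6 of them. Among all genes 11.7% were called, 5.83% lower and 5.92% higher, and 13.8% were lower with an unadjusted p under 0.05. The median log2 change of the 8 was -0.61, beside -0.02 over all genes. Deviations from the group means correlated across genes at 0.523 between the arrays numbered 1 and at 0.636 between those numbered 3. Between those numbered 2 the correlation was 0.141, below the 0.322 of oil replicate 2 with progesterone replicate 1. When the number was used as a block, 5 of the 8 were called lower, Adipoq, Fabp4, Car3, Retn and Cidec. In that fit 8.49% of all genes were called lower and 7.6% higher. With 1 replicate number left out, the block fit has 4 arrays and called no gene of the whole table lower (limma), so it cannot show whether the 5 calls are stable. The log2 changes in those fits ran from -2.46 to -1.56 for Adipoq (-1.56 without replicate number 3), and 5 or 6 of the 8 markers had an unadjusted p under 0.05, as had 4116 to 4410 of all genes. The unmoderated linear model, which borrows no variance from other genes, called 1 of the 8, Lipe. Over all genes that model called 245 lower and 348 higher, against 1060 and 1077 in the limma fit without a block.

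**Figure D1:**
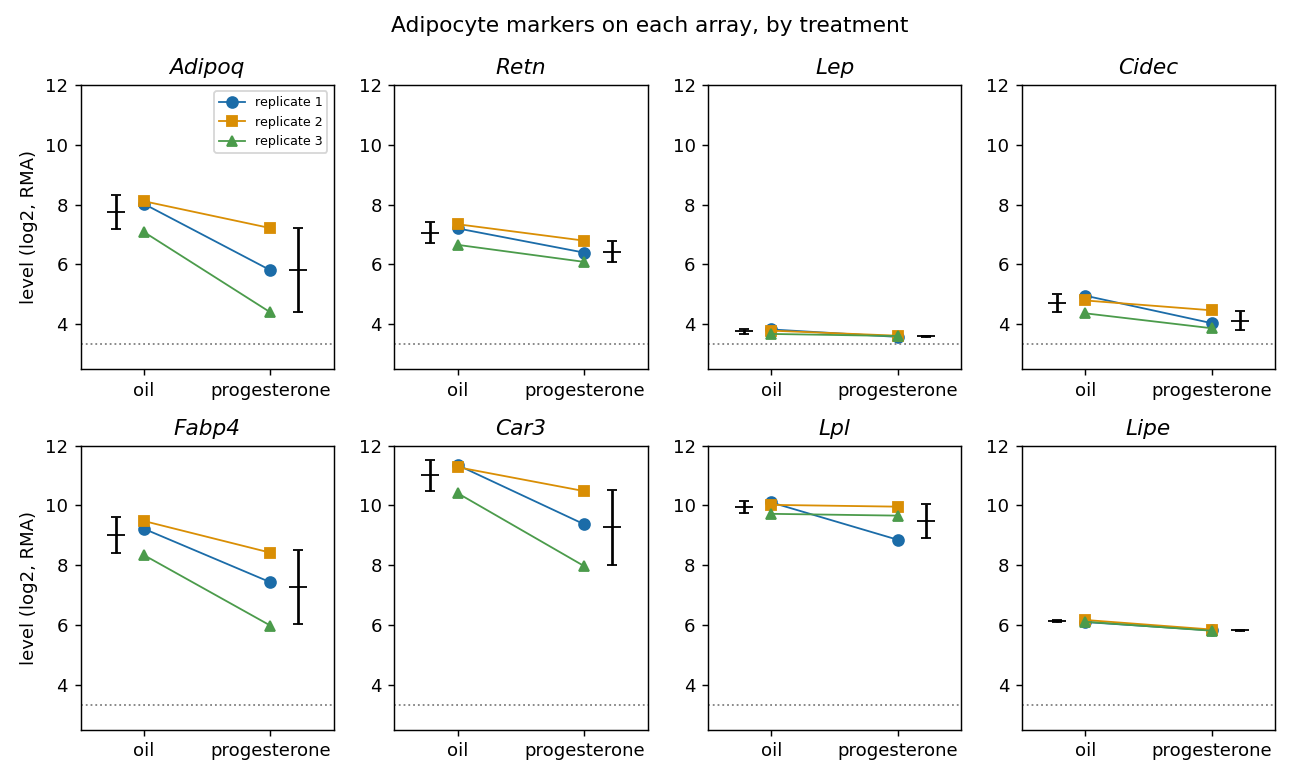
Level (log2, RMA) of the 8 measured adipocyte markers with oil and with progesterone; coloured lines join arrays with the same replicate number, black bars are mean ± SD (n = 3 per group) and the dotted line is the highest TrpnX control value, 3.34. The Adipoq, Fabp4 and Car3 lines drop furthest for replicates 1 and 3, Lpl drops mainly for replicate 1, and Lep lies close to the dotted line.

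Adipoq (probe set 1422651_at) was measured at 8.02, 8.11 and 7.08 on oil replicates 1 to 3 and at 5.80, 7.21 and 4.39 on progesterone replicates 1 to 3. Oil replicates 1 and 2 were the highest arrays and progesterone replicate 3 was the lowest, and the groups overlapped, because progesterone replicate 2 lay above oil replicate 3. The group means were 7.74 ± 0.571 and 5.80 ± 1.41 (log2, mean ± SD, n = 3 per group), a 3.83-fold lower level after progesterone (log2 change -1.94 ± 0.661 SE, limma adjusted p = 0.113). Within replicate numbers the differences were -2.22, -0.90 and -2.69. With the replicate block the SE was 0.317 and the limma adjusted p was 0.0135. Without progesterone replicate 2 the log2 change was -2.64 and passed without the block (limma adjusted p = 0.0399), and without progesterone replicate 3 it was -1.23 (adjusted p = 0.187). From the highest to the lowest array Adipoq spanned 13.2-fold, down to 4.39, a low level on this scale.

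Retn encodes resistin, a cysteine-rich factor that mouse fat cells secrete. Its levels were 7.20, 7.34 and 6.65 with oil and 6.39, 6.79 and 6.08 with progesterone. The arrays stood in the same order as for Adipoq over a shorter span, 2.39-fold. The log2 change was -0.64 ± 0.234 SE (1.56-fold lower, limma adjusted p = 0.131), and the adjusted p was 0.0116 with the replicate block. Its differences within replicate numbers, -0.81, -0.55 and -0.57, were closer to each other than those of Adipoq.

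Lep, which encodes leptin, the satiety hormone of fat, lay between 3.57 and 3.82 on the 6 arrays. These values sit just above the TrpnX controls, so little of the level can be told from background. The oil arrays, at 3.82, 3.78 and 3.67, lay above the progesterone arrays, at 3.57, 3.61 and 3.60, but the log2 change was -0.16 ± 0.086 SE (limma adjusted p = 0.295). Over all genes the progesterone arrays lay wholly below the oil arrays in 15.9%.

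Promoter sequences are shown for these 3 secreted factors, because they were measured on the same arrays and differ in how far they moved. They are the 250 bases before the RefSeq start site in GRCm38.p6, 5′ to 3′ on the gene's strand, with matches to the motifs searched in capitals. The Adipoq stretch is chr16:23146286-23146535 on the plus strand, that of Retn chr8:3655520-3655769 on the plus strand and that of Lep chr6:29059971-29060220 on the plus strand.
Adipoq: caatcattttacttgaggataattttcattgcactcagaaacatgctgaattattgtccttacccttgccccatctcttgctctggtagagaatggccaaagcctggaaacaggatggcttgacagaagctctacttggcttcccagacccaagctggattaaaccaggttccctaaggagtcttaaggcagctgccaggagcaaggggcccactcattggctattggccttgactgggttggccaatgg
Retn: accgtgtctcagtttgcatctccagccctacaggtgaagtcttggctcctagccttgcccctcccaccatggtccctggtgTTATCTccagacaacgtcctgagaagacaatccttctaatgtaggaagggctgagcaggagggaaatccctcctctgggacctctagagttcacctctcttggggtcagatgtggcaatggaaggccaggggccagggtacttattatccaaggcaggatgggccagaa
Lep: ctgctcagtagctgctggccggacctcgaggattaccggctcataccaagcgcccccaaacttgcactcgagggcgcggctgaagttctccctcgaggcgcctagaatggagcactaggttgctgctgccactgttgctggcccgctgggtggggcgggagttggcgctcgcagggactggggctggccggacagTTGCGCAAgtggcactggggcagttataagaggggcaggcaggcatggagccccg
Sequences were found for 7 of the 10 genes, among them Cidec and Lipe with 2 start sites each, and Fabp4, Car3 and Lpl are named only. Each 300-base window, which runs 50 bases past the start site, was searched on both strands. The motifs were the repeat bound by PPAR and RXR, the palindrome bound by the progesterone and glucocorticoid receptors, the C/EBP motif TTGCGCAA, the GATA motif AGATAA and the TATA box TATAAA. No 2 of these motifs matched at overlapping bases in these windows. The only matches were TTGCGCAA at -55 in Lep, a motif held by 0.183% of all 32851 promoter windows, and AGATAA on the opposite strand at -169 in Retn, a motif held by 11.2%. The receptor motif was held by 0.00913% of windows, the PPAR and RXR motif by 0.0396% and the TATA box by 13.6%. A match is a description of letters and not a site of binding.

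Fabp4, the fatty acid binding protein of fat cells, is also made by capillary endothelium and macrophages. Its main probe set read 9.22, 9.48 and 8.34 with oil and 7.43, 8.42 and 5.98 with progesterone. The order of the arrays was that of Adipoq, with progesterone replicate 3 lowest and progesterone replicate 2 above oil replicate 3. The level was 3.33-fold lower after progesterone (log2 change -1.74 ± 0.594 SE, limma adjusted p = 0.113), and the adjusted p was 0.00765 with the replicate block, the lowest among the 8 markers. Without progesterone replicate 3 the log2 change was -1.09, without progesterone replicate 2 it was -2.31, and the mean of its probe sets gave -0.93 (limma adjusted p = 0.177, 0.0586 and 0.157). Of its other probe sets, 1451263_a_at read 7.10, 7.42 and 6.38 with oil and 5.33, 6.62 and 4.0 with progesterone, a similar change of -1.65. The remaining pair, 1424155_at and 1425809_at, read between 3.48 and 4.49 and changed by -0.34 and 0.0 (limma adjusted p over probe sets 0.351 and 1).

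Car3, carbonic anhydrase III, is abundant in fat cells and in slow skeletal muscle. It read 11.35, 11.28 and 10.41 with oil and 9.37, 10.48 and 7.97 with progesterone, again with progesterone replicate 2 above oil replicate 3. The log2 change was -1.74 ± 0.593 SE (3.34-fold lower, limma adjusted p = 0.112), and the adjusted p was 0.0143 with the replicate block. Without progesterone replicate 2 the change was -2.34 and passed without the block (limma adjusted p = 0.0483), and without progesterone replicate 3 it was -1.09 (adjusted p = 0.171). All of its 4 probe sets had a lower mean after progesterone, by -1.74, -1.31, -0.63 and -0.23 from the brightest to the dimmest. Of the skeletal muscle transcripts, the fast myosins Myh1 and Myh4 were at or below 3.34 on every array and Myh2 reached 3.35, while the slow myosin Myh7 lay between 4.36 and 4.65, Mb, the muscle oxygen carrier, between 4.87 and 5.46 and Tnni2, a fast troponin, between 6.79 and 7.14. The log2 changes of Myh7, Mb and Tnni2 were -0.11, 0.09 and 0.04 (limma adjusted p = 0.552, 0.792 and 0.879), and the part of muscle in the Car3 level was not tested.

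Cidec, which joins lipid droplets to each other, was the droplet protein measured. Its values were 4.95, 4.79 and 4.36 with oil and 4.03, 4.46 and 3.86 with progesterone, in the array order of Car3. The log2 change was -0.58 ± 0.203 SE (1.5-fold lower, limma adjusted p = 0.118), and the adjusted p was 0.0338 with the replicate block. These levels are low, from 3.86 to 4.46 with progesterone, and with an offset of 32 the log2 change was -0.23 (limma adjusted p = 0.166).

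The lipases did not follow this order. Lpl read 10.10, 10.02 and 9.72 with oil and 8.85, 9.96 and 9.66 with progesterone. Only progesterone replicate 1 stood apart, and the differences within replicate numbers were -1.25, -0.06 and -0.06 (log2 change -0.46 ± 0.274 SE, limma adjusted p = 0.363, and 0.269 with the block). A second Lpl probe set, 1431056_a_at, was also lowest on that array, at 5.77 against 6.52 to 7.22 on the others. Cd36, a fatty acid transporter that fat cells, endothelium and macrophages share, was likewise lowest there, at 5.10 against 5.99 to 6.69. Of the 18 lists of markers of other cells described further on, 10 had their lowest sum on progesterone replicate 1, some by little. On progesterone replicates 1 and 3 the log2 sums were 11.78 and 11.81 for blood endothelium, 15.14 and 15.15 for smooth muscle and 15.09 and 15.10 for uterine stroma. The macrophage sum was 10.63 on progesterone replicate 1 and 11.01 on the next lowest array, oil replicate 1. The part of these cells in the Lpl values was not tested.

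Lipe gave a small and even difference. It read 6.10, 6.17 and 6.11 with oil and 5.82, 5.85 and 5.81 with progesterone, and the groups did not overlap. The log2 change was -0.30 ± 0.0809 SE (1.23-fold lower, limma adjusted p = 0.0565, and 0.0703 with the block), with differences of -0.28, -0.32 and -0.30 within replicate numbers. It passed when the lowest 25% of genes were left out (limma adjusted p = 0.0457), with an offset of 32 (0.0221) and in the unmoderated linear model (0.0331). It did not pass with a trended and robust prior (limma adjusted p = 0.151), as the mean of its probe sets (0.163) or in any of the 6 fits without 1 array (0.108 to 0.182). The dimmer Lipe probe set, 1432180_at, read between 3.02 and 3.95 in no such order (log2 change -0.30 ± 0.209 SE, limma adjusted p over probe sets 0.50).

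**Figure D2:**
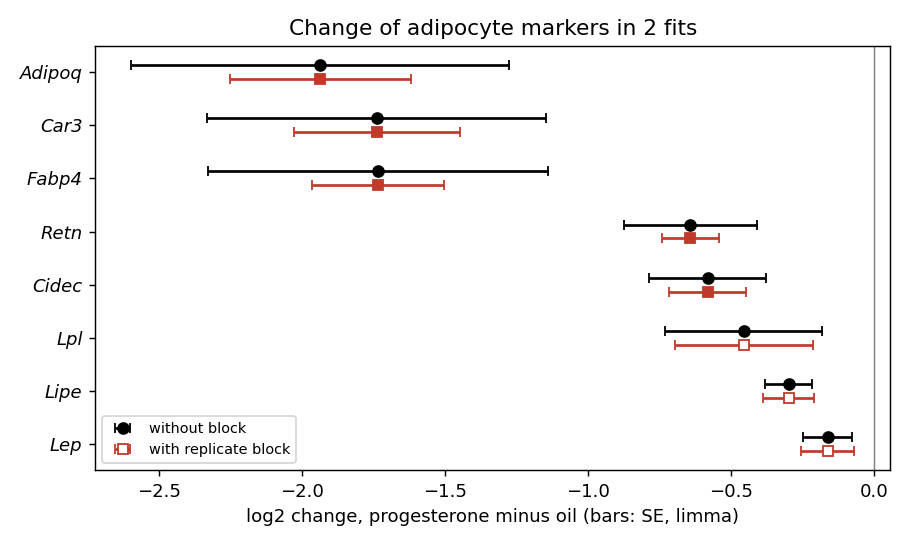
Log2 change (progesterone minus oil) of the 8 markers with its SE from limma, 3 arrays per group; black circles are the fit without a block, red squares the fit with same-numbered replicates as a block, filled where the adjusted p was under 0.05. The changes run from -1.94 for Adipoq to -0.16 for Lep, and the block shortens the bars of Adipoq, Fabp4, Car3, Retn and Cidec.

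Adipoq, Fabp4 and Car3 kept nearly fixed distances from each other. Car3 minus Adipoq on the same array was 3.33, 3.17 and 3.33 with oil and 3.57, 3.27 and 3.58 with progesterone (log2), a range of 0.41. Fabp4 minus Adipoq was 1.20, 1.37 and 1.26 with oil and 1.63, 1.21 and 1.59 with progesterone, a range of 0.43, while Adipoq itself ranged over 3.72. The sizes of these distances depend on the probes, and only their steadiness is read here. Lpl minus Adipoq ranged over 3.36 and so did Lipe minus Adipoq. Ranges of at least 3 log2 units over the 6 arrays were seen in 3 of the 8 markers, Adipoq, Fabp4 and Car3, and in 0.715% of all genes.

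Likeness was then measured as the root mean square difference, over the 6 arrays, between 2 genes' values after each was centred on its own mean. Of the 18192 other genes, Car3 was nearest to Adipoq (0.151 log2 units) and Fabp4 was next (0.174). Cyp2e1, a monooxygenase made by liver and fat cells, came after them at 0.445. Next were Aldh1a3 (0.496), Diras2 (0.689), Klhl14 (0.691), Dapk2 (0.713), Ppargc1a (0.734), Car8 (0.737), Sema3e (0.743), Cdkl1 (0.747) and Nsg2 (0.762). These were ranked only among genes with a mean above 3.34 and a range of at least 1. All of those after Cyp2e1 were called lower (limma), and their groups did not overlap. Of them, only Ppargc1a is in a list of fat cell genes used here. This comparison with Adipoq alone was chosen after the values had been seen. Cyp2e1 read 6.92, 7.29 and 6.96 with oil and 5.89, 6.65 and 4.41 with progesterone (log2 change -1.41 ± 0.506 SE, limma adjusted p = 0.128, and 0.0406 with the block), and its groups did not overlap. Unlike for Adipoq, oil replicate 3 lay above progesterone replicate 2, and oil replicate 3 was the array with the liver transcript Alb at 8.71. The part of liver in the Cyp2e1 values was not tested. Against the median profile of the 8 markers, whose span is smaller, the 10 nearest other genes were Vegfd, Ecm2, Asic2, Sncaip, Foxp2, Syt9, Ahnak2, Gm527, Prima1 and Ghdc, at 0.127 to 0.157 log2 units, among 2277 genes with a mean above 3.34 and a range of at least 1.

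**Figure D3:**
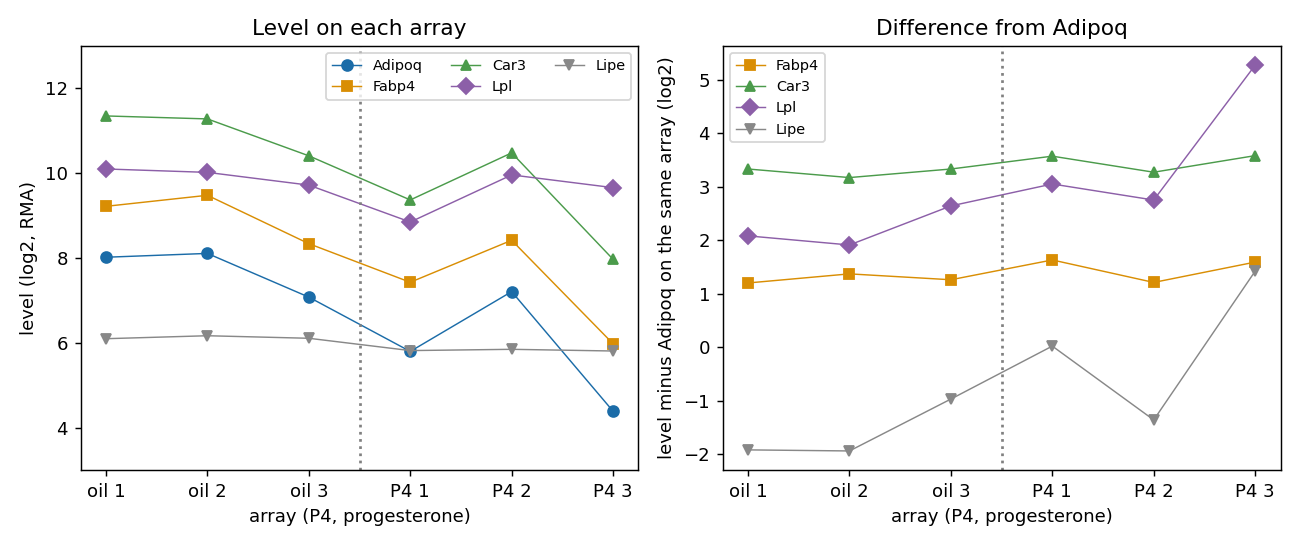
Left, level (log2, RMA) of 5 markers on each of the 6 arrays; right, the level of each minus that of Adipoq on the same array (log2), with thin lines only to guide the eye and a dotted line between oil and progesterone (P4). Car3 and Fabp4 stay within 0.41 and 0.43 of a constant distance, whereas Lpl and Lipe move away from Adipoq by up to 3.36.

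The order of the arrays was shared beyond these 3 genes. Oil replicates 1 and 2 stood highest, followed by progesterone replicate 2, oil replicate 3, progesterone replicate 1 and progesterone replicate 3, in 5 of the 8 markers (Adipoq, Fabp4, Car3, Retn and Cidec) and in 0.533% of all genes. This order was read from the markers themselves, so the 5 are a description only. Lipe shared with these 5 the highest level on oil replicate 1 or 2 and the lowest on progesterone replicate 3, which held for 12.1% of all genes. Every one of the 8 was lower in all 3 same-numbered pairs, against 26.7% of all genes. Progesterone replicate 2 lay above oil replicate 3 in 6 of the 8, with Lep and Lipe as the exceptions. The share of all genes with this feature was not counted, so the 6 are a description only.

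Other genes of fat cells were taken from a list of 31, of which 27 were measured. Most had a lower mean after progesterone, and Gpd1, Agpat2, Rbp4 and Mest had a higher mean. Of the 27, 12 were lower in all 3 same-numbered pairs, against 26.7% of all genes. In this list 3 were lower and 24 did not pass (limma), 9 had an unadjusted p under 0.05, and the median log2 change was -0.17. With the block 5 were lower and 1 higher, Rbp4, which encodes the retinol carrier of blood. Rbp4 read 7.08, 7.53 and 8.16 with oil and 8.04, 8.06 and 9.01 with progesterone (log2 change 0.78, limma adjusted p = 0.208, and 0.00991 with the block), and was highest on the array where Adipoq was lowest. Hcar1, the lactate receptor that restrains lipolysis, was 2.37-fold lower (log2 change -1.25 ± 0.164 SE, limma adjusted p = 0.00624), and this call held in all 6 fits without 1 array. Its values, 5.48, 5.95 and 5.43 with oil and 4.46, 4.18 and 4.48 with progesterone, did not follow the array order of Adipoq. Gpam, an enzyme that begins triglyceride synthesis, was 1.41-fold lower and Npr3, the clearance receptor of natriuretic peptides, 1.51-fold lower. Without oil replicate 1, oil replicate 2 or progesterone replicate 2 the call of Gpam ended (adjusted p up to 0.0659), and that of Npr3 held in 0 of the 6 fits without 1 array. A range of at least 1 log2 unit over the arrays was seen in 10 of the 27. Among these, Cyp2e1 ranged over 2.88, and the groups of Cd36 (log2 change -0.79, limma adjusted p = 0.136) and of Dgat2, an enzyme that completes triglyceride synthesis (-0.60, 0.178), did not overlap. Plin4, a droplet coat protein, ranged over 0.41 and Aoc3, an amine oxidase of fat cells and smooth muscle, over 0.35, and Slc2a4, the insulin-regulated glucose transporter, over 0.58. Within its short range Aoc3 had the array order of Adipoq, the only gene of this list that did.

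Among 16 brown and beige fat genes, 4 were lower, 1 was higher and 11 did not pass. Ppargc1a, a coactivator of mitochondrial genes, was 2.61-fold lower (log2 change -1.38 ± 0.212 SE, limma adjusted p = 0.0098), a call that ended only without oil replicate 2 (adjusted p = 0.051). Slc27a2, a fatty acid transporter, was 2.62-fold higher, Elovl6, a fatty acid elongase, 1.54-fold lower and Prdm16 1.40-fold lower, and with 1 array left out these 3 calls survived in 1, 2 and 2 of 6 fits. Ucp1, the uncoupling protein that defines brown fat, lay between 3.63 and 3.96.

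In the droplet and lipolysis list 3 of 20 measured genes were lower and 17 did not pass. Hsd17b11, a droplet-bound dehydrogenase, was 1.62-fold lower (limma adjusted p = 0.00877), a call that held in all 6 fits without 1 array. With the block Pnpla2, the first lipase of the droplet, was also lower and Fitm2, which aids droplet formation, higher (limma adjusted p = 0.015 and 0.021). Plin2 and Plin3, the perilipins of cells in general, were 1.49-fold and 1.44-fold lower, and each call held in 2 of those 6 fits. Of 14 partners of lipoprotein lipase, 1 was higher, Sort1, a sorting receptor, by 1.90-fold (limma adjusted p = 0.0346, held in 2 of 6 fits), and 13 did not pass. Gpihbp1, which holds the lipase on the capillary wall, was at 6.54 with oil and 7.07 with progesterone (limma adjusted p = 0.123, and 0.0252 with the block).

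Of 26 transcription factors of adipogenesis 2 were higher, 2 lower and 22 did not pass. Zbtb16 was 5.79-fold higher (limma adjusted p = 0.00578), a call that held in all 6 fits without 1 array, and Gata2, a factor that restrains fat cell formation, was 1.69-fold higher (0.0411). Foxo1 and Nr3c1, the glucocorticoid receptor, were 1.39-fold and 1.38-fold lower (0.0384 and 0.0467). With 1 array left out, the calls of Gata2, Foxo1 and Nr3c1 each survived in 1 of 6 fits. Pparg differed by -0.03 ± 0.17 SE (limma adjusted p = 0.952). In a list of 10 adipokine and related receptors, Adipor2, a receptor of adiponectin, was 1.38-fold higher and Lepr, the leptin receptor, 1.57-fold lower. Insr, the insulin receptor rather than an adipokine receptor, was 1.29-fold lower. With 1 array left out, the calls of Adipor2, Lepr and Insr survived in 1, 2 and 0 of 6 fits. The call of Insr was also lost with the block (limma adjusted p = 0.0545).

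Relatives of the markers changed in either direction. Of 13 measured fatty acid binding proteins and other small lipid carriers 1 was higher, Fabp3, by 1.74-fold (held in 1 of 6 fits without 1 array), and 12 did not pass, of which Rbp7 was higher with the block (limma adjusted p = 0.0148). Of 15 carbonic anhydrases, Car5b, a mitochondrial form, was 3.62-fold higher (limma adjusted p = 0.0122) and Car8 and Car11 were 2.87-fold and 1.67-fold lower (0.00811 and 0.0478), and the calls of Car5b and Car8 held in all 6 fits, that of Car11 in 1. Among 11 relatives of resistin, perilipin and complement factor D, adiponectin-like genes included, 3 were lower, Plin2, Plin3 and C1qtnf7, the last by 1.89-fold (limma adjusted p = 0.0233, held in 2 of 6 fits).

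**Figure D4:**
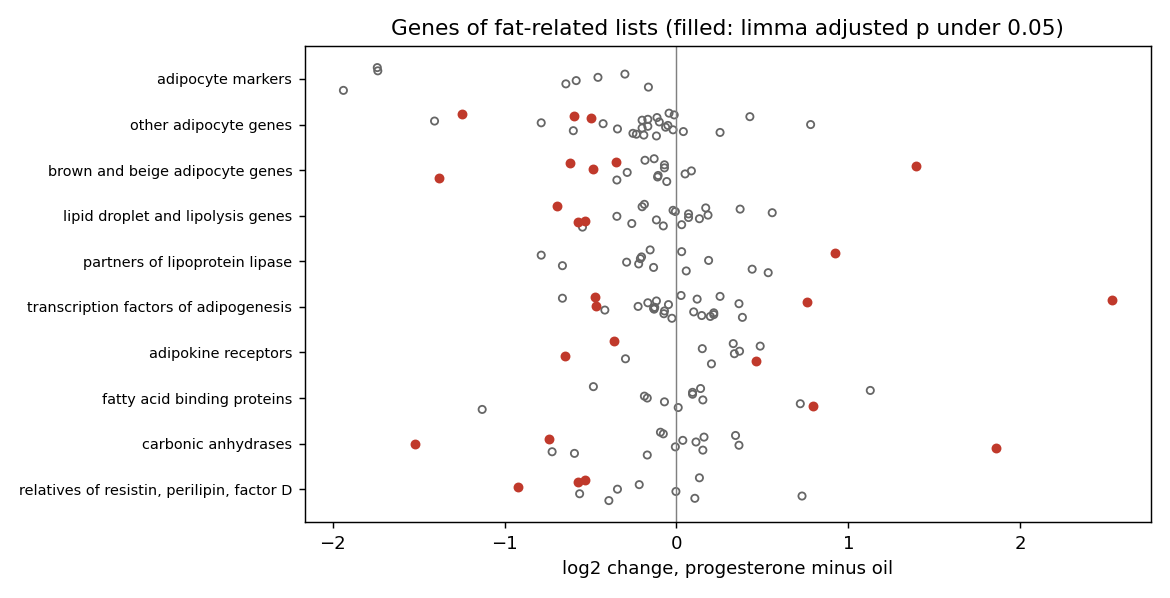
Log2 change (progesterone minus oil, 3 arrays per group) of each gene in the adipocyte markers and 9 lists of related genes, one circle per gene, filled where the limma adjusted p was under 0.05; height within a row has no meaning. Adipoq, Fabp4 and Car3 lie at -1.94 to -1.74 as open circles, and the filled circles of the other lists lie on either side of 0.

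Markers of other cells were set beside the fat markers as sums of linear levels. The sum of the 8 markers, in which Car3 has the highest level on oil replicates 1 and 2 and Lpl on progesterone replicate 3, spanned 3.73-fold over the arrays, and that of the preadipocyte and fat stroma list 1.17-fold, from 8200 to 9220 with oil and from 7850 to 8830 with progesterone. None of its 8 measured members passed (limma, also with the block), and 1 had an unadjusted p under 0.05 (Dlk1, with a log2 change of -0.37 and an adjusted p of 0.082), although Pdgfra and others of them are also made by uterine stroma. The neutrophil sum ran from 323 to 11200 with oil and from 277 to 15600 with progesterone, and the macrophage sum from 2060 to 6310 and from 1590 to 5990. Adipoq was 8.02 and 8.11 with oil and 5.80 with progesterone on the 3 arrays low in S100a8, and 7.08 with oil and 7.21 and 4.39 with progesterone on the 3 arrays high in it. With the mean of S100a8 and S100a9 as a covariate, the log2 change of Adipoq was -1.73 (limma adjusted p = 0.163).

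Blood endothelium, which also makes Fabp4, had a sum of 4040 to 5530 with oil and 3510 to 3800 with progesterone. In this list 1 of 10 genes was lower, the junction protein Cldn5 (1.88-fold, limma adjusted p = 0.0217). That call ended when any 1 of the 3 progesterone arrays was left out. With the replicate block, the fit in which the fat markers were called, 3 endothelial genes were lower (limma), Cldn5 (adjusted p = 0.00991), Pecam1 (0.0293) and Tek (0.0352), and Gpihbp1 was higher. In that fit 2 of 4 peripheral nerve genes, Mbp and Scn7a, and 1 of 5 lymphatic genes, Pdpn, were also lower. The part of endothelium in the Fabp4 values was not tested. The smooth muscle sum was 40600 to 41700 with oil and 36100 to 43100 with progesterone. Mesothelium, the covering of the uterus and of its ligament, had a sum of 2500 to 2760 with oil and 2090 to 2480 with progesterone, and none of its 7 genes passed (limma, with an unadjusted p under 0.05 in 0 of them). Of the 18 marker lists, 0 had summed levels in the array order of Adipoq. Only 0.533% of all genes had that order, so the 0 says little. Of the same lists, 2 (mesothelium and ovary) were lowest on progesterone replicate 3, and 7 were highest on oil replicate 1 or 2. The progesterone sums lay wholly below the oil sums in 5 lists, blood endothelium, mesothelium, uterine stroma, ovary and peripheral nerve, and wholly above them in 2, skeletal muscle and erythroid. Uterine stroma held 3 genes called higher, Hoxa10, Hoxa11 and Hand2, and 2 called lower, Pgr and Esr1 (limma). Its median log2 change was 0.115, and Dcn had the highest mean level in it. The erythroid sums were 67.6 to 71.7 with oil and 72.7 to 76.5 with progesterone, a 1.13-fold span at low levels. None of its 4 genes had an unadjusted limma p under 0.05. In the list of skeletal muscle, the other tissue rich in Car3, Acta1 was 2.98-fold higher (limma adjusted p = 0.0149, and 0.0651 without oil replicate 2) and the other 11 genes did not pass. Acta1 had the highest mean level in that list and weighs most in its sum. The median log2 change of the list was 0.003. The part of adhering fat or of any other tissue in these differences was not tested.

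**Figure D5:**
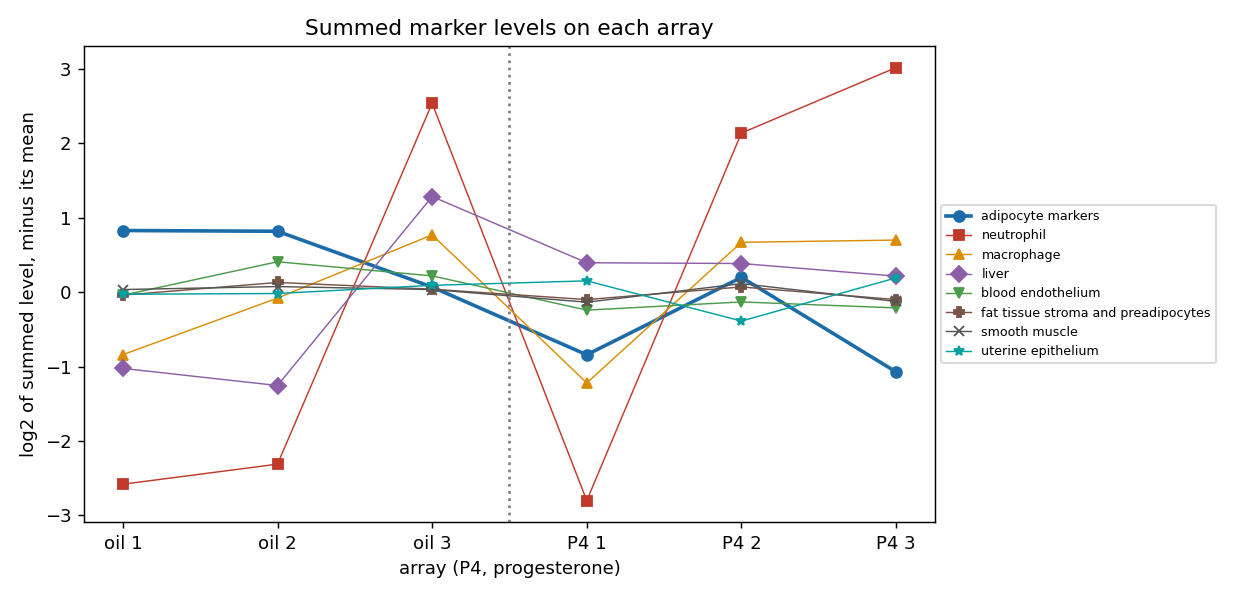
Log2 of the summed linear level of each marker list on each of the 6 arrays, minus its mean over the arrays; the thick blue line is the 8 adipocyte markers and P4 is progesterone. The fat markers are highest on oil replicates 1 and 2 and lowest on progesterone replicate 3, where the neutrophil markers are highest, while smooth muscle and preadipocyte lists stay nearly flat.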

How the data were processed

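Uterine RNA was measured on 6 one-colour arrays, 3 per group, grouped by the sample titles. The authors deposited 1 log2 value per probe set and array (45101 probe sets), made with Partek 6.6 and RMA per the submitters' processing notes, with settings not given in the sources used here. Annotation of the platform gave 34945 probe sets a single gene symbol, 932 more than 1 and 9160 none, beside 64 controls. The markers and gene lists were chosen with earlier results of these data known, and lists support nothing on their own.

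The test was the two-sided moderated test of limma 3.58.1 (R 4.3.3), with no filter and no block, over 18193 genes, with Benjamini-Hochberg adjustment and a threshold of 0.05. The procedure was tested on simulated data. Named genes were the 10 markers, up to 4 called genes of each related list (otherwise the largest change), the 10 nearest by profile, and up to 3 called genes and the highest of each marker list; not all are printed.

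Deviations from the group means correlated at 0.523, 0.141 and 0.636 across genes between same-numbered arrays, all above 0.1, so the numbers pair the samples by the rule used here. Against this, oil replicate 2 had a higher correlation with progesterone replicate 1, 0.322, and the labels do not say what a number shares. Sequences and motif shares came from RefSeq promoters of GRCm38.p6. Alternatives were quantile renormalization, centring, an offset of 32, leaving out 25% or 50% of genes, other probe set choices, other variance models, a threshold of 0.01, the block and arrays left out. The covariate, the block with a replicate number left out and the array order that was counted were added after seeing the data.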

Additional observations from a re-analysis of the deposited data

How the results depend on the processing

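The log2 changes of the 8 markers were negative in all 170 values from the other settings. Of these values, 10 passed the threshold where the reported value did not. The block on all arrays, the other variance models, every probe set, the gene filters and the 0.01 threshold repeat the reported log2 change. In those settings the sign could not differ. The count of markers called lower was 0 as reported, 5 with the replicate block and 1 (Lipe) with an offset of 32, without the lowest 25% of genes and in the unmoderated linear model. Over the fits without 1 array it ran from 0 to 2, the 2 being Adipoq and Car3 without progesterone replicate 2. No marker was called higher in any of these fits. Leaving out oil replicate 3 and progesterone replicate 3 together, where 441 genes were lower and 586 higher, called none of the markers, with Adipoq at -1.56 (limma adjusted p = 0.107). The block with a replicate number left out has 4 arrays: it called 0 markers (limma, lowest adjusted p 0.0504 without replicate 2, while 6, 5 and 6 of the 8 had an unadjusted p under 0.05), and over all genes 0 to 8 higher and 0 lower, with 4116 to 4410 genes at an unadjusted p under 0.05. It therefore says little about the stability of the 5 calls. The counts of all genes called higher and lower were 1077 and 1060 as reported, 1808 and 1692 over every probe set, 348 and 245 in the unmoderated linear model and 328 and 243 at a threshold of 0.01. Over the fits without 1 array they ran from 379 to 848 and from 278 to 907. With the block 1382 and 1545 genes were called. Lep, Cidec and the dim Fabp4, Car3 and Lipe probe sets lay low on the scale, toward the control level, which limits what they can show. The same holds for the Adipoq value on progesterone replicate 3.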
